A study of Mus musculus with 9 samples.

Results

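The genes described here are the zinc-dependent histone deacetylases Hdac1 to Hdac10, chosen by symbol as 10 of the 46078 gene identifiers in the count files. Their RNA was measured in EGFP-SSCs, a mouse spermatogonial stem cell (SSC) line of WT genotype that carries enhanced green fluorescent protein. The 0 h group was EGFP-SSCs in normal culture on mitomycin C-treated mouse embryonic fibroblasts, in a medium with glial cell line-derived neurotrophic factor (GDNF), basic fibroblast growth factor and epidermal growth factor. The 24 h and 48 h groups were the same cells mixed in equal parts with testicular somatic cells from busulfan-treated pups aged 3 to 7 days (busulfan depletes germ cells). That culture used α-MEM with KSR, BMP-4/7, retinoic acid, activin A, testosterone, FSH and BPE, and the EGFP-positive fraction was collected by flow cytometry at 24 or 48 h. Each group had 3 biological replicates, all from 1 cell line, so the replicates do not cover differences between SSC lines. Time, medium and somatic partner cells changed together, and their parts in any difference cannot be told apart. The labels describe the sort for the 24 h and 48 h cells alone. The paper states that SSCs were flow-sorted for RNA-seq across stages of culture, and it does not describe a 0 h sort separately.

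Histone deacetylases take acetyl groups off lysines, and on histone tails this is a classical step in shutting genes down. Class I enzymes (Hdac1, Hdac2, Hdac3 and Hdac8) are mostly nuclear, and Hdac1, Hdac2 and Hdac3 work inside corepressor complexes. Class IIa enzymes (Hdac4, Hdac5, Hdac7 and Hdac9) have little deacetylase activity of their own, bind MEF2 transcription factors, and leave the nucleus when kinases phosphorylate them. Class IIb enzymes (Hdac6 and Hdac10) act largely in the cytoplasm. Spermatogonia remodel their chromatin as they leave the stem state, and histone acetylation is among the marks that change in male germ cells.

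The 9 libraries held between 16825251 and 22201892 counts. Levels are given as CPM, the counts of a gene scaled to a common library size by TMM normalization over the 9 libraries. Differences were tested with the quasi-likelihood F test of edgeR, and its p-values, adjusted by the Benjamini-Hochberg method over all genes tested, are called edgeR adjusted p, with a threshold of 0.05. Of the genes called, 44.55% were higher at 24 h than at 0 h and 41.24% were higher at 48 h, while scaling by library size alone gave 57.1% and 52.82%, with the median of all genes shifted to 0.12 and 0.13 on the log2 scale. The labels call the cells spermatogonial stem cells. The 11 germ cell markers (Ddx4, Dazl, Dppa3, Zbtb16, Sall4, Gfra1, Pou5f1, Tdrd1, Mael, Kit and Stra8) summed to 1940 to 2975 CPM at 0 h, 3512 to 3758 CPM at 24 h and 2825 to 3066 CPM at 48 h. The paper reports Kit and Stra8 as rising and Gfra1, Pou5f1 and Zbtb16 as falling in this culture. The sum thus mixes stages and is no measure of germ cell content. Somatic markers also moved with time. The 9 stromal markers summed to 315 to 402 CPM at 0 h, 2132 to 2464 CPM at 24 h and 2861 to 3151 CPM at 48 h. The 8 peritubular myoid markers went from at most 16.0 CPM to at least 149 CPM and 266 CPM, the 10 Sertoli markers from at most 25.8 CPM to at least 79.99 CPM and 122 CPM, and the 7 Leydig markers from at most 6.99 CPM to at least 28.7 CPM and 29.1 CPM. Fshr (Sertoli) and Lhcgr (Leydig) stayed at or under 3 counts in every library. The 6 endothelial markers summed to 70.1 to 77.1 CPM at 0 h, 28.3 to 36.3 CPM at 24 h and 20.9 to 24.0 CPM at 48 h, and the 6 macrophage markers to 16.2 to 18.9 CPM, 7.21 to 12.3 CPM and 8.48 to 10.1 CPM. At 48 h against 0 h, the genes called were 2 higher and 3 lower of 10 tested germ cell markers, 6 higher and 1 lower of 9 stromal, 6 higher of 7 myoid, 8 higher of 9 Sertoli, 4 higher of 4 Leydig, 1 higher and 3 lower of 5 endothelial, and 1 higher and 1 lower of 4 macrophage markers. The part of these marker shifts in the deacetylase results was not tested. In such bulk RNA, fewer cells of a type and less RNA per cell cannot be told apart.

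Following transfer to differentiation culture, members of the family moved in both directions. Hdac7 fell the furthest, Hdac4 and Hdac3 fell less, Hdac6 and the rare Hdac9 rose, and Hdac5 was higher at 48 h. All 10 genes could be tested in each of the 3 comparisons, which share libraries with one another. At 24 h, 4 of the 10 passed the test against 25.5% of all genes tested: Hdac6 and Hdac9 were higher (11.4% of all genes) and Hdac4 and Hdac7 were lower (14.2% of all genes). At 48 h against 0 h, 6 of the 10 passed against 31.6% of all genes: Hdac5, Hdac6 and Hdac9 were higher (13.0% of all genes) and Hdac3, Hdac4 and Hdac7 were lower (18.5% of all genes). From 24 h to 48 h, 3 of the 10 passed against 21.3% of all genes, and Hdac3, Hdac6 and Hdac7 were each lower (12.7% of all genes), while 0 were higher (8.61% of all genes, with 0 also at an unadjusted p under 0.05 and 0 in DESeq2). The median log2 difference over the 10 genes was 0.10 at 24 h and -0.11 at 48 h, each against 0 h, and -0.19 from 24 h to 48 h. Over all genes tested it was 0.01, 0.02 and -0.00.

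**Figure D1:**
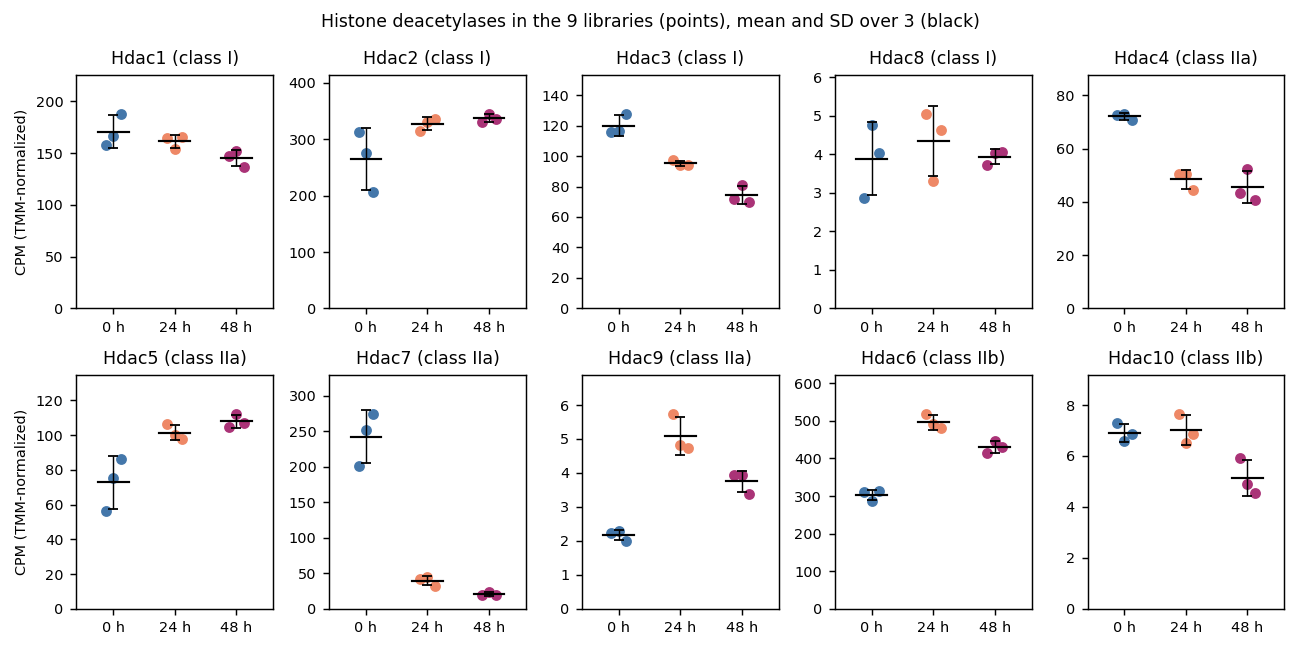
CPM (vertical axes, each starting at 0) of the 10 deacetylases at 0, 24 and 48 h, with points for the 3 libraries of a group and black bars for their mean and SD. Hdac7 dropped from 201 to 274 CPM at 0 h to 19.1 to 23.5 CPM at 48 h, and Hdac6 stood at 286 to 312 CPM at 0 h and 479.8 to 519 CPM at 24 h.

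Hdac7, a class IIa member known from blood vessel integrity and thymocyte development, was the most changed of the 10. The gene (ENSMUSG00000022475) lies at chr15:97792664-97844502 on the minus strand of GRCm38. Its 0 h libraries held 201, 252 and 274 CPM, its 24 h libraries 42.5, 44.2 and 32.5 CPM, and its 48 h libraries 19.1, 23.5 and 19.7 CPM. The 3 groups did not overlap, and the lowest 0 h library was above every later one. The log2 difference was -2.59 ± 0.18 (SE) at 24 h (edgeR adjusted p = 8.02e-05) and -3.54 ± 0.17 at 48 h (edgeR adjusted p = 1.58e-05), or 6.04-fold and 11.7-fold lower than at 0 h. It fell again between 24 h and 48 h, by 0.95 ± 0.13 on the log2 scale (edgeR adjusted p = 0.00156). These 3 calls held in every one of the 15 alternative fits of each comparison, with log2 differences of -2.71 to -2.46, -3.66 to -3.35 and -1.06 to -0.72. The summed endothelial markers, from a cell type in which Hdac7 is well known, fell over the same period (values above). Singly, 3 of the 5 tested were lower and 1 was higher at both later times against 0 h. Of all genes, 14.2% were lower and 11.4% higher at 24 h, and 18.5% and 13.0% at 48 h. The endothelial marker Emcn was at or under 3 counts in each 0 h library. The part of these markers in the fall of Hdac7 was not tested.

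Hdac7 has several annotated starts, and counts per gene cannot tell which was in use. RefSeq's promoter table for GRCm38.p6 holds 11 windows for 7 of the 10 genes, each of 250 bases before to 50 bases after an annotated start; Hdac1, Hdac3 and Hdac10 have no window there. The windows were searched on both strands for CCAAT (the NF-Y box), GGGCGG (the GC box), CCGGAA (the ETS core), CACGTG (an E box), AGGTCA (a nuclear receptor element) and the MEF2 consensus, and no matches in the printed windows overlapped one another. Of all 32817 windows, 37.4% held CCAAT, 35.6% GGGCGG, 14.9% CCGGAA, 7.15% CACGTG, 16.3% AGGTCA and 3.19% the MEF2 consensus. Windows were printed for genes that passed at 24 h against 0 h and reached a mean of 10 CPM at either time. These were Hdac4, Hdac6 and Hdac7. For each, the window nearest the gene's outermost annotated start and a window with the most matches were taken. For Hdac7 these were the outermost start and an inner start 13007 bases further into the gene. In both, the letters run 5′ to 3′ on the minus strand with matches in capitals, where TTCCGG is CCGGAA read from the other strand.
Hdac7 outermost start, chr15:97844453-97844752: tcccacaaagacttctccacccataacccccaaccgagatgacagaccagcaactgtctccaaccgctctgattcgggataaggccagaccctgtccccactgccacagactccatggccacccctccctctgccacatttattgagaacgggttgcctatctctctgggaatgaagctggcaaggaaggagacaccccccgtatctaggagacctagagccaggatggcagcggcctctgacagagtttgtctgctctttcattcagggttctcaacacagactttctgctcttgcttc
Hdac7 inner start, chr15:97831446-97831745: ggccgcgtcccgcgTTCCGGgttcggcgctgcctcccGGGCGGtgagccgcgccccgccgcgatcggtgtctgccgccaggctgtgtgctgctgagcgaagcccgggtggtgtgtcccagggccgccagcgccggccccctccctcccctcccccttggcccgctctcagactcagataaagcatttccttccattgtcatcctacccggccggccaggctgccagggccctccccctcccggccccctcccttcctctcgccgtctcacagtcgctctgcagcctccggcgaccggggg
The outermost window held none of the 6 motifs, and the inner one held 1 CCGGAA and 1 GGGCGG. A neighbouring inner window, whose start lies 12735 bases from the outermost one, held 2 CCGGAA matches, and 3.58% of all windows held at least 2. The cut-off of 2 is the count found in that window, so the share is no test. That window overlaps the printed inner one, and the match printed above lies in the overlap and is 1 of those 2. The fourth window held 1 AGGTCA. No Hdac7 window held CCAAT or the MEF2 consensus.

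Hdac4, a class IIa enzyme that restrains MEF2-driven genes in muscle and cartilage, also fell. It lies at chr1:91928779-92195699 on the minus strand (ENSMUSG00000026313). The 0 h libraries held 72.4, 73.1 and 70.6 CPM, the 24 h libraries 50.6, 50.4 and 44.5 CPM, and the 48 h libraries 43.5, 52.2 and 40.6 CPM. All 0 h libraries were above all later ones, and the 24 h and 48 h libraries overlapped. The log2 difference from 0 h was -0.56 ± 0.11 (SE) at 24 h (edgeR adjusted p = 0.00907) and -0.66 ± 0.13 at 48 h (edgeR adjusted p = 0.0074), and both calls held in all 15 alternatives. Between 24 h and 48 h the difference was -0.10, with a 95% interval of -0.34 to 0.13 (edgeR adjusted p = 0.51). In the annotation, 22.4% of the Hdac4 exon bases are shared with Gm26720 on the opposite strand, and Gm26720 had 0 counts in every library. The strand setting of the counting is not known, and reads in the shared bases may be missing from both genes. The Hdac4 level, and the order and shares below that use it, may thus be too low by an unknown amount.

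Hdac5, another signal-responsive class IIa enzyme, moved the other way. It lies at chr11:102194432-102230166 on the minus strand (ENSMUSG00000008855). The 0 h libraries held 56.6, 75.5 and 86.4 CPM, the 24 h libraries 106, 100.3 and 97.6 CPM, and the 48 h libraries 105, 112 and 107 CPM. Every later library was above every 0 h library, but the 0 h libraries were themselves spread, with replicate 1 the lowest. The log2 difference was 0.49 ± 0.16 (SE) at 24 h, which missed the threshold (edgeR adjusted p = 0.0616), and 0.57 ± 0.16 at 48 h, which passed it (edgeR adjusted p = 0.032). The 24 h difference passed in 6 of 15 alternatives, among them the fit without 0 h replicate 3 (0.66, edgeR adjusted p = 0.00867). The 48 h call was lost without 0 h replicate 2 (edgeR adjusted p = 0.0903) and without 48 h replicate 1, 2 or 3 (edgeR adjusted p = 0.0883, 0.111 and 0.0955), with differences of 0.53 to 0.60 in those fits. The 24 h and 48 h groups overlapped, with a difference of 0.08 and a 95% interval of -0.06 to 0.22, which became 0.30 with offsets for GC content and length (edgeR adjusted p = 0.0079). Its promoter window, whose RefSeq start lies 6 bases from the GENCODE start, was the only one of the 11 with a match to the MEF2 consensus, and it also held 2 CCAAT, 1 GGGCGG and 1 CACGTG.

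Hdac9, the class IIa member that restrains growth of heart muscle, was the rarest of the family by length and rose from that low level. It lies at chr12:34047580-34917095 on the minus strand (ENSMUSG00000004698). Its 0 h libraries had 36, 46 and 40 counts, its 24 h libraries 117, 90 and 97 counts, and its 48 h libraries 75, 91 and 67 counts. In CPM these were 2.24, 2.28 and 1.99 at 0 h, then 5.74, 4.81 and 4.73 at 24 h, and 3.93, 3.95 and 3.39 at 48 h, so that no group overlapped another and the 48 h libraries lay between the others. The log2 difference was 1.24 ± 0.21 (SE) at 24 h (edgeR adjusted p = 0.00448), or 2.37-fold, and it held in all 15 alternatives. At 48 h it was 0.79 ± 0.21 (edgeR adjusted p = 0.0246). That call was lost without the filter on low counts (edgeR adjusted p = 0.0688), with offsets for GC content and length (0.57, edgeR adjusted p = 0.0806), without 0 h replicate 2 (edgeR adjusted p = 0.0599), and without 48 h replicate 1, 2 or 3 (edgeR adjusted p = 0.0946, 0.0909 and 0.0578). The step from 24 h to 48 h was -0.45 ± 0.17 and missed the threshold (edgeR adjusted p = 0.0863), although it reached -0.60 with the GC and length offsets (edgeR adjusted p = 0.0382).

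Hdac6, the class IIb deacetylase of α-tubulin, cortactin and HSP90, was the abundant member that rose. It lies at chrX:7930120-7947889 on the minus strand (ENSMUSG00000031161). The 0 h libraries held 309, 286 and 312 CPM, the 24 h libraries 519, 492 and 479.8 CPM, and the 48 h libraries 415, 446 and 431 CPM. The 3 groups did not overlap, and the level was highest at 24 h. The log2 difference from 0 h was 0.73 ± 0.10 (SE) at 24 h (edgeR adjusted p = 0.00194), or 1.66-fold, and 0.51 ± 0.10 at 48 h (edgeR adjusted p = 0.00683), or 1.42-fold. Both calls held in all 15 alternatives. The step down from 24 h to 48 h was -0.22 ± 0.06 and just passed the threshold (edgeR adjusted p = 0.0353), but it passed in only 4 of 15 alternatives, with adjusted p of 0.131 and 0.0705 without 24 h replicate 1 or 2 in edgeR, and 0.206 and 0.0842 without 48 h replicate 1 or 3. The summed germ cell markers were likewise highest at 24 h, with means of 2470, 3665 and 2931 CPM at the 3 times. Taken singly, 3 of the 10 tested markers were higher and 2 lower at 24 h than at 0 h. The shares of all genes were 11.4% and 14.2%, and the markers' median log2 difference was 0.06. The part of these markers in the rise of Hdac6 was not tested.

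The promoter windows of Hdac6 and Hdac4 are shown by the same rule as those of Hdac7. Hdac6 rose and Hdac4 fell, and their windows held the same motif counts. Each has 5 GGGCGG and 2 CCAAT matches. Of all windows, 0.244% (80 of 32817) held at least 5 GGGCGG together with at least 2 CCAAT, while 2.71% held at least 5 GGGCGG and 11.7% at least 2 CCAAT. These cut-offs are the counts found in the Hdac6 and Hdac4 windows themselves, so the shares are descriptions and no test of chance. Matches are in capitals, 5′ to 3′ on the minus strand, and ATTGG is CCAAT read from the other strand.
Hdac6, chrX:7947840-7948139: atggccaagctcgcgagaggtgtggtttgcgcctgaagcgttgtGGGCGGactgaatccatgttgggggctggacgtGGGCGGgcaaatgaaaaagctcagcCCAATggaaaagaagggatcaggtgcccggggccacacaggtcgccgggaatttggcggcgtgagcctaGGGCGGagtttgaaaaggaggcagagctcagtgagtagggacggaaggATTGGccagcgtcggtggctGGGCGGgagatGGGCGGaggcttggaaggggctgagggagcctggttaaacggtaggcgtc
Hdac4, chr1:92180292-92180591: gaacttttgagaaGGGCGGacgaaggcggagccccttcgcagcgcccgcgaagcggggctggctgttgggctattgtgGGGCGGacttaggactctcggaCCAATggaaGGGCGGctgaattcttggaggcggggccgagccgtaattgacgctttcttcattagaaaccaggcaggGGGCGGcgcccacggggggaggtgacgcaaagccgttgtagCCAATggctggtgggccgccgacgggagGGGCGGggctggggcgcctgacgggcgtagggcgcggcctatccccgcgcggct
In the Hdac6 window the CCAAT matches begin 148 and 31 bases before the start, and in the Hdac4 window 150 and 32 bases before it. The RefSeq start of Hdac4 lies 15358 bases inside the outermost GENCODE start. A match is a run of letters and not a measured binding site.

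Hdac10, the other class IIb gene, encodes an enzyme that deacetylates acetylated polyamines. It lies at chr15:89123307-89128700 on the minus strand (ENSMUSG00000062906). It was scarce, at 7.29, 6.59 and 6.87 CPM at 0 h, 7.66, 6.52 and 6.88 CPM at 24 h, and 5.91, 4.91 and 4.55 CPM at 48 h, from 90 to 156 counts per library. The 0 h and 24 h libraries overlapped, and all 48 h libraries were below them. At 24 h the log2 difference was 0.04, with a 95% interval of -0.34 to 0.41 (edgeR adjusted p = 0.909). At 48 h it was -0.43 ± 0.18 (SE) from 0 h (edgeR adjusted p = 0.106) and -0.47 ± 0.16 from 24 h (edgeR adjusted p = 0.0631), and neither passed the threshold in any of 15 alternatives. With offsets for GC content and length they were smaller, at -0.15 and -0.27 (edgeR adjusted p = 0.562 and 0.24).

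**Figure D2:**
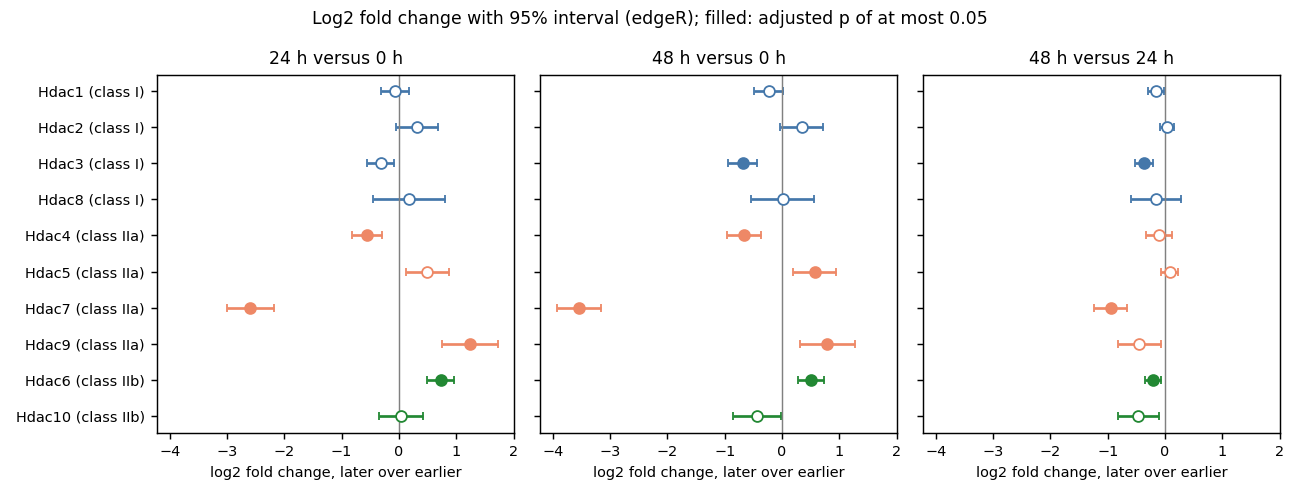
Log2 fold change (horizontal axes) of each deacetylase in the 3 comparisons, with 95% intervals from the edgeR fit, coloured by class and filled where the adjusted p was at most 0.05. Hdac7 stands apart at -2.59 and -3.54 in the comparisons with 0 h, and 3 genes are filled from 24 h to 48 h.

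Hdac3, the class I catalytic subunit of a nuclear receptor corepressor complex, was lower at each later time and passed the test at 48 h. It lies at chr18:37935844-37955016 on the minus strand (ENSMUSG00000024454). The 0 h libraries held 116, 116 and 128 CPM, the 24 h libraries 97.3, 94.2 and 94.2 CPM, and the 48 h libraries 72.1, 81.0 and 70.1 CPM. The groups did not overlap in any comparison. The log2 difference at 24 h was -0.32 ± 0.10 (SE), at the edge of the threshold (edgeR adjusted p = 0.0507), and it passed without 0 h replicate 1 (-0.34, edgeR adjusted p = 0.0384) and with all 9 libraries in 1 fit (-0.33, edgeR adjusted p = 0.0173), while scaling by library size alone gave -0.21 (edgeR adjusted p = 0.168). At 48 h it was -0.69 ± 0.11 (edgeR adjusted p = 0.00324), a call that held in all 15 alternatives. From 24 h to 48 h it was -0.37 ± 0.07 (edgeR adjusted p = 0.00752), lost only without 48 h replicate 1 (-0.32, edgeR adjusted p = 0.0565) among 15 alternatives.

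Hdac1 and Hdac2 are closely related catalytic subunits of the Sin3, NuRD, CoREST and MiDAC complexes, and neither passed the test in any comparison. Hdac1 (ENSMUSG00000028800, chr4:129516104-129542713, minus strand) held 158, 167 and 188 CPM at 0 h, 165, 154 and 165 CPM at 24 h, and 147, 152 and 137 CPM at 48 h. All 48 h libraries were below all others, while the 0 h and 24 h libraries overlapped. Its log2 difference was -0.07 at 24 h (95% interval -0.32 to 0.18, edgeR adjusted p = 0.704), a direction that reversed to 0.05 under scaling by library size alone, and -0.23 at 48 h (95% interval -0.49 to 0.02, edgeR adjusted p = 0.153). The 48 h difference was -0.13 without 0 h replicate 3, and -0.12 both under scaling by library size alone and with offsets for GC content and length. From 24 h to 48 h it was -0.16 ± 0.06 (SE, edgeR adjusted p = 0.104).

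Reads of Hdac1 may be split with a copy. Of the longest Hdac1 transcript, 70.9% matched Gm10093 in stretches of at least 75 bases at 97% identity or more, and Gm10093 itself was counted at 41.6 ± 6.03, 39.0 ± 3.54 and 36.7 ± 2.22 CPM (mean ± SD, n = 3 at each time). How reads that match both genes were counted is not known here, and such reads may be missing from both. The Hdac1 values, and the order, shares and ratios below that use them, are thus uncertain by an unknown amount. Summing the pair does not bring missing reads back. Summing the pair gave 212 ± 21.6, 200.4 ± 8.71 and 182 ± 9.87 CPM, and the sum passed the test in no comparison (edgeR adjusted p = 0.7, 0.18 and 0.129). Of the other 9 genes, 8 shared no such stretch and Hdac4 shared 1.68%.

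Hdac2 (ENSMUSG00000019777, chr10:36974544-37001889, plus strand) held 313, 277 and 206 CPM at 0 h, 314, 331 and 337 CPM at 24 h, and 331, 346 and 336 CPM at 48 h. The 0 h libraries lay below all later ones but were spread over more than 100 CPM, with replicate 1 close to the 24 h libraries, while the 24 h and 48 h libraries were tight and overlapped. The log2 difference was 0.32 at 24 h (95% interval -0.06 to 0.69, edgeR adjusted p = 0.197) and 0.35 at 48 h (95% interval -0.03 to 0.72, edgeR adjusted p = 0.144). Without 0 h replicate 1 the differences were 0.46 and 0.49 and passed (edgeR adjusted p = 0.0424 and 0.0293). Without 0 h replicate 3 they were 0.19 and 0.22 and did not pass (edgeR adjusted p = 0.189 and 0.128). With offsets for GC content and length the 24 h difference was 0.29 and passed (edgeR adjusted p = 0.0352), while the 48 h difference was 0.17 and did not (edgeR adjusted p = 0.267). Among the 0 h libraries, replicate 1 had the most Hdac2 and the least Hdac1, Hdac5 and Hdac7, and replicate 3 the reverse.

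Hdac8, the class I deacetylase of the cohesin subunit Smc3, was near the bottom of the family. It lies at chrX:102284639-102505359 on the minus strand (ENSMUSG00000067567). Its libraries held 2.87, 4.76 and 4.03 CPM at 0 h, 5.05, 3.31 and 4.64 CPM at 24 h, and 3.72, 4.04 and 4.05 CPM at 48 h, from 46 to 103 counts. The groups overlapped in all comparisons. The 95% intervals of the log2 difference ran from -0.46 to 0.80 at 24 h and from -0.53 to 0.56 at 48 h, and so included differences of either sign (edgeR adjusted p = 0.705 and 0.97).

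By groups of libraries that did not overlap, 7 of the 10 genes separated 24 h from 0 h (43.4% of all genes tested), 9 separated 48 h from 0 h (48.3%), and 6 separated 48 h from 24 h (39.6%). Changes of at least 2-fold that also passed the test were fewer, namely Hdac7 and Hdac9 at 24 h (13.2% of all genes), Hdac7 at 48 h (16.7%), and 0 of the 10 from 24 h to 48 h (2.97%). In that last comparison 3 passed the edgeR test at a smaller size (21.3% of all genes passed at any size). In it 6 had an unadjusted p under 0.05, but the share of all genes under that threshold was not counted, so the 6 cannot be read as many or few.

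To order the genes by level, CPM were divided by the length of merged exons, in kilobases (CPM per kb). At 0 h the order was Hdac2 (59.2 ± 12.1, SD, n = 3), Hdac6 (52.0 ± 2.43), Hdac1 (49.6 ± 4.59), Hdac7 (35.9 ± 5.59), Hdac3 (29.6 ± 1.69), Hdac5 (8.29 ± 1.72), Hdac4 (4.56 ± 0.0813), Hdac10 (2.05 ± 0.104), Hdac8 (0.803 ± 0.197) and Hdac9 (0.148 ± 0.0107). The libraries of Hdac2, Hdac6 and Hdac1 overlapped, as did those of Hdac7 and Hdac3, so these neighbours were not apart beyond their spread. At 24 h the top of the order was Hdac6 (85.4 ± 3.42), Hdac2 (73.2 ± 2.59) and Hdac1 (46.9 ± 1.87), no neighbours overlapped, and Hdac7 had gone from place 4 to place 6, at 5.89 ± 0.934, behind Hdac5 at 11.5 ± 0.505. At 48 h Hdac2 (75.4 ± 1.67) and Hdac6 (74.0 ± 2.68) overlapped at the top, and Hdac7 (3.07 ± 0.355) overlapped Hdac4 (2.87 ± 0.382). With the longest transcript as the length, the order within the top 3 at 0 h became Hdac1, Hdac2, Hdac6, that of the top pair at 24 h became Hdac2, Hdac6, and Hdac4 came before Hdac7 at 48 h. The other places were the same.

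The summed level per length of the 10 genes was 242 ± 1.46 CPM per kb at 0 h, 253 ± 3.38 at 24 h and 231 ± 8.09 at 48 h (SD, n = 3), while its make-up by class changed. Class IIa went from 20.2% ± 2.89 of the sum in normal culture to 8.25% ± 0.563 at 24 h and 8.01% ± 0.217 at 48 h. Class IIb went from 22.3% ± 0.999 to 34.6% ± 0.979 and 32.7% ± 0.543. The ranges of 0 h and the later times did not overlap for either class. Class I held 57.5% ± 2.77, 57.1% ± 1.48 and 59.3% ± 0.546, ranges that overlapped between 0 h and each later time. Inside class IIa, the share of Hdac7 over the 3 times was 73.4% ± 0.593, 28.1% ± 2.63 and 16.6% ± 0.865, and that of Hdac5 was 16.9% ± 1.06, 55.5% ± 2.58 and 66.6% ± 1.88. The class thus went from mostly Hdac7 to mostly Hdac5, with an Hdac5 to Hdac7 ratio of 0.230 ± 0.0127, 1.99 ± 0.287 and 4.03 ± 0.307. The Hdac6 to Hdac3 ratio went from 1.76 ± 0.0874 to 3.64 ± 0.0833 and 4.04 ± 0.224. The Hdac1 to Hdac2 ratio was 0.875 ± 0.279, 0.641 ± 0.0391 and 0.560 ± 0.0257. At 0 h its libraries ranged from 0.655 to 1.19, and with the longest transcript as the length the 0 h mean was 1.07. These shares and ratios are descriptions with no test.

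**Figure D3:**
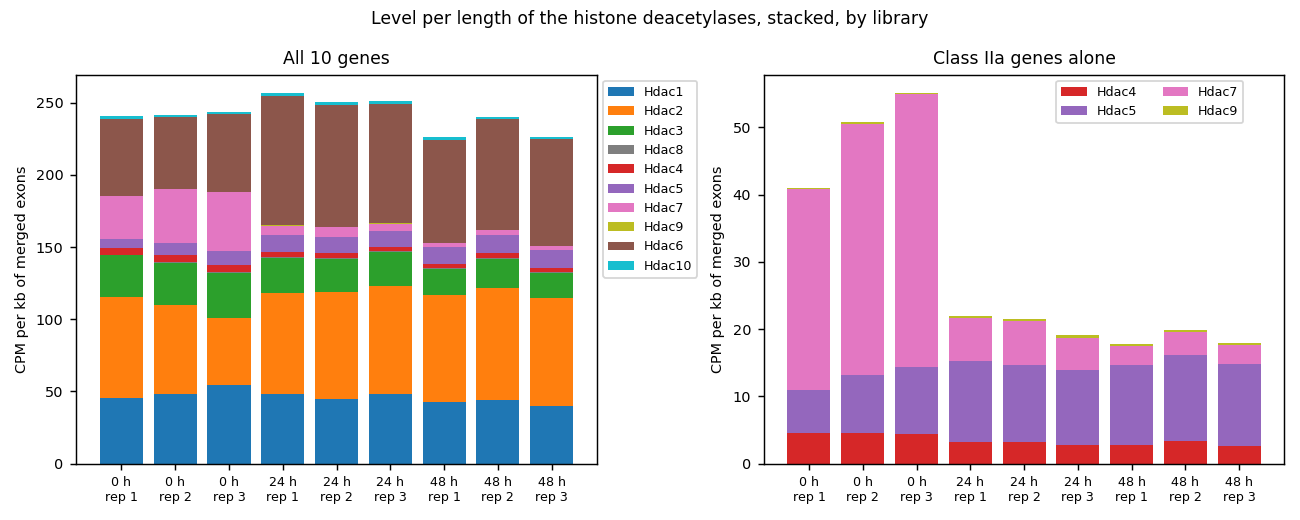
Stacked CPM per kb of merged exons (vertical axes) in the 9 libraries (horizontal axes), for all 10 deacetylases at left and for the 4 class IIa genes alone at right. The full stacks stay between 226 and 257 CPM per kb, while the Hdac7 segment at right shrinks from 29.7 to 40.6 at 0 h to 2.82 to 3.48 at 48 h.

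The partners of these enzymes were counted in 9 lists with 98 genes in all. At 24 h, 26 of 96 tested genes passed (27.1%), 7 higher and 19 lower, against 25.5% of all genes. At 48 h against 0 h, 38 of 97 passed (39.2%), 8 higher and 30 lower, against 31.6% of all genes, with a median log2 difference of -0.10 and of 0.02 over all genes. From 24 h to 48 h, 34 of 96 passed (35.4%), 4 higher and 30 lower, against 21.3% of all genes. Those counts were sensitive to single libraries, ranging from 10 to 34 at 24 h and from 23 to 51 at 48 h when each library was left out in turn, lowest without 24 h replicate 1 or 2 and without 48 h replicate 1 or 3, and from 16 (without 48 h replicate 1) to 40 from 24 h to 48 h.

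The counts for single lists at 48 h against 0 h are read beside 18.5% of all genes lower and 13.0% higher. Among the complexes built on Hdac1 and Hdac2, the Sin3 list had 4 of 15 genes lower and 1 higher at 48 h. Ing2, a reader of methylated histone H3, went from 47.8 ± 2.96 to 28.4 ± 2.54 and 20.6 ± 2.02 CPM (SD, n = 3), a log2 difference of -1.21 at 48 h (edgeR adjusted p = 0.000402). Sap30l (-1.04), Sap30 (-0.51) and Ing1 (-0.43) were the other lower genes, and Sap130 (0.37), named after its value was seen, the higher one. In the NuRD list 2 of 12 were lower and 0 higher at 48 h in edgeR (1 higher at an unadjusted p under 0.05 and 1 in DESeq2). At 24 h against 0 h, 1 was lower and 2 were higher, against 14.2% and 11.4% of all genes. Chd4, the remodelling ATPase of NuRD, went from 1317 ± 124 to 820.3 ± 22.7 and 724 ± 13.1 CPM, a log2 difference of -0.86 (edgeR adjusted p = 0.00102), and Mta2 fell by 0.53. From 24 h to 48 h, 7 of the 12 NuRD genes were lower and 1 was higher, against 12.7% and 8.61% of all genes. Mbd3 and Chd5, named after their values were seen, were higher at 24 h than at 0 h (1.05 and 0.53, edgeR adjusted p = 0.00808 and 0.041) and lower at 48 h than at 24 h (-0.44 and -0.49, edgeR adjusted p = 0.011 and 0.0189). The MiDAC and MIER list had 2 of 6 lower at 48 h, Elmsan1 (-0.88) and Trerf1 (-0.61), both scaffolds of MiDAC.

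The CoREST list held genes that moved in both directions. Zmym3, a zinc finger subunit, went from 138 ± 5.05 to 513 ± 26.0 and 338 ± 15.0 CPM, with log2 differences of 1.91 at 24 h (edgeR adjusted p = 3.03e-05) and 1.30 at 48 h (edgeR adjusted p = 9.23e-05). Kdm1a, the histone demethylase of the complex, rose from 210 ± 16.2 to 276 ± 6.26 and 270.1 ± 7.29 CPM (0.41 and 0.37, edgeR adjusted p = 0.0242 and 0.0318). Phf21a and Hmg20b fell, by 1.05 and 1.30 on the log2 scale at 48 h. The counts were 2 higher and 2 lower of 9 genes at both times against 0 h. Of all genes, 11.4% were higher and 14.2% lower at 24 h, and 13.0% and 18.5% at 48 h.

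The list of class IIa regulators and binding partners changed in both directions, with 11 of 25 tested genes lower and 5 higher at 48 h than at 0 h, against 18.5% and 13.0% of all genes. Sik1, a salt-inducible kinase that phosphorylates class IIa enzymes, went from 239 ± 31.9 to 148 ± 0.941 and 94.3 ± 12.5 CPM, a log2 difference of -1.34 at 48 h (edgeR adjusted p = 0.0006). Prkd2, a protein kinase D, fell by 1.83 and Camk2b, a calmodulin-dependent kinase, by 1.12. Sfn, of the phosphoserine-binding adaptor family that holds class IIa enzymes in the cytoplasm, fell by 1.96, from 10.6 to 4.46 and 2.74 CPM. The more abundant adaptor genes Ywhae (-0.43), Ywhaz (-0.74), Ywhag (-0.56) and Ywhab (-0.46) were also lower at 48 h. Ywhaq, of the same family, did not pass (0.06, edgeR adjusted p = 0.682). The kinase genes Sik3 (-0.63), Camk1d (-0.77) and Mark3 (-0.52) were the other lower genes. These further adaptor and kinase genes were named after their values were seen. The 5 higher genes, named after their values were seen, were the kinase genes Camk1 (1.15), Camk2d (1.10), Camk4 (0.81) and Prkd1 (0.41) and the adaptor gene Ywhah (0.56). Mef2d, which encodes a binding partner of these enzymes and was named after its values were seen, was at 102, 147 and 127 CPM. It passed at 24 h against 0 h (0.54, edgeR adjusted p = 0.0343). At 48 h its log2 difference of 0.32 did not pass (edgeR adjusted p = 0.0772).

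The remaining lists concern single members. In the list of counter-enzymes and substrates of Hdac6 and Hdac8, which includes the tubulin acetyltransferase Atat1, the Hsp90 genes, Cttn and Smc3, 0 of 7 genes passed at 24 h or at 48 h against 0 h in edgeR, with medians of -0.03 and -0.08. DESeq2 also called 0, and 0 at 24 h and 2 at 48 h had an unadjusted p under 0.05. The 0 h libraries were widely spread for Hsp90aa1 (1845 ± 770 CPM), Smc3 (250 ± 130), Esco1 (58.3 ± 44.4) and Esco2 (73.5 ± 58.4; SD, n = 3). With SEs of 0.28 to 0.57 at 48 h, changes in these genes could be missed. From 24 h to 48 h, 1 of the 7 was lower, against 12.7% of all genes. This was Hsp90ab1 (-0.27, edgeR adjusted p = 0.0193), named after its value was seen. In the polyamine list, whose metabolites include the substrates of Hdac10, 6 of 12 genes were lower at 48 h in edgeR and 0 higher (0 also at an unadjusted p under 0.05 and in DESeq2), against 18.5% and 13.0% of all genes. The median log2 difference was -0.55 in the list and 0.02 over all genes. Smox, spermine oxidase, went from 57.9 ± 11.3 to 13.8 ± 0.262 and 9.48 ± 0.148 CPM, a log2 difference of -2.61 at 48 h (edgeR adjusted p = 4.64e-05). Paox (-1.31), Sat1 (-1.07) and the spermidine synthase Srm (-0.84) fell as well. Of the 8 other deacetylases, which are Hdac11 and the sirtuins, only Sirt6 passed in edgeR at 48 h against 0 h (-1.08, edgeR adjusted p = 0.00406), while DESeq2 called 1 lower and 1 higher. Hdac11 was at 24.9 ± 6.00, 27.5 ± 1.81 and 21.6 ± 2.99 CPM and passed only from 24 h to 48 h (-0.36, edgeR adjusted p = 0.0427). In that step 4 of the 8 were lower and 1 was higher, against 12.7% and 8.61% of all genes. Beside Hdac11, Sirt6 (-0.61), Sirt2 (-0.51) and Sirt3 (-0.43) were lower, and Sirt1 (0.40) was higher. Sirt1, Sirt2 and Sirt3 were named after their values were seen.

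**Figure D4:**
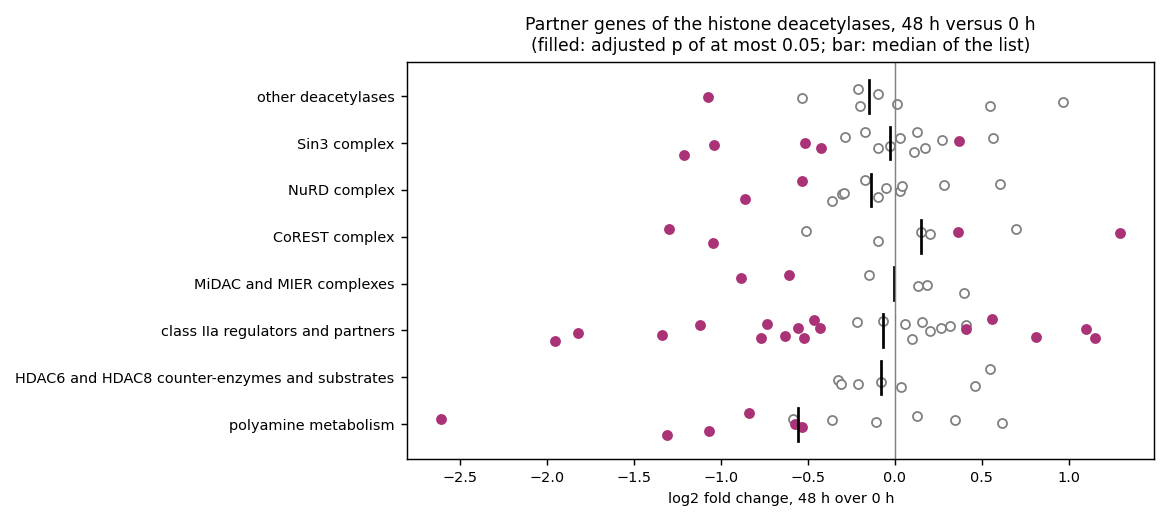
Log2 fold change at 48 h against 0 h (horizontal axis) for every tested gene of 8 of the 9 partner lists, by list, filled where the adjusted p was at most 0.05, with a black bar at each list's median and vertical offsets only to keep points apart. Polyamine genes are filled only to the left of 0, and no counter-enzyme or substrate of Hdac6 and Hdac8 is filled.

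The genes whose profiles over the 9 libraries were most like those of the family's widest movers were looked up among the 10951 genes compared, by Pearson's r of log2 CPM. For Hdac7 these were Chrna4 (r = 0.9979), Nid2 (r = 0.9979) and Plk3 (r = 0.9977). Nid2, a basement membrane protein, was at 735, 227 and 159 CPM, Chrna4, an acetylcholine receptor subunit, at 66.6, 16.2 and 10.2 CPM, and Plk3, a polo-like kinase, at 58.3, 13.7 and 7.60 CPM. For Hdac9 they were Hcn4 (r = 0.9902), Tctn1 (r = 0.9883) and Gng7 (r = 0.9877), with 24 h as the highest time in each. These values describe libraries that share a time course and so cluster by time.

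The genes around each deacetylase were examined by position, a choice made after values were seen. Around Hdac7, 4 of the 5 tested genes within 100 kb were lower at 24 h than at 0 h and 5 of 5 at 48 h, against 14.2% and 18.5% of all genes. Rapgef3, a cyclic AMP-activated exchange factor for Rap GTPases that lies downstream of Hdac7 on the same strand, went from 121 ± 5.99 to 10.0 ± 0.790 and 3.71 ± 0.205 CPM (SD, n = 3), with log2 differences of -3.58 and -5.02 (edgeR adjusted p = 7.42e-06 and 3.29e-06). Slc48a1, a haem transporter whose end shares 29 exon bases with that of Hdac7 on the opposite strand, went from 30.5 ± 5.01 to 7.71 ± 1.78 and 8.27 ± 0.893 CPM (-1.97 and -1.88, edgeR adjusted p = 0.000572 and 0.000214). Rpap3 fell by 1.00 and 0.88 on the log2 scale, Endou was at only 1.01 CPM at 0 h, and Vdr was lower at 48 h alone (-0.79, edgeR adjusted p = 0.015).

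Around Hdac10, which did not pass the test itself, 3 of 11 tested neighbours were lower at 24 h and 4 of 11 at 48 h, against 14.2% and 18.5% of all genes. The adjacent Mapk12 and Mapk11, both p38 kinases transcribed in the direction of Hdac10, went from 27.6 ± 2.41 to 8.30 ± 0.682 and 5.11 ± 0.661 CPM and from 33.7 ± 2.30 to 4.06 ± 0.595 and 2.12 ± 0.0790 CPM. Their log2 differences at 48 h were -2.43 and -3.99 (edgeR adjusted p = 5.22e-05 and 5.7e-06), and Plxnb2 and Ppp6r2 were lower by 1.12 and 0.42. For the other members the counts at 48 h are likewise read beside 13.0% of all genes higher and 18.5% lower. Around Hdac6, of 12 tested neighbours, 1 was higher and 2 were lower, around Hdac1, of 10, 1 was higher and 1 was lower, around Hdac3, of 12, 2 were higher and 2 lower, and around Hdac5, of 10, 2 were lower. Many of the 12 around Hdac3 are overlapping genes of a protocadherin cluster and are not independent. Both higher ones, Pcdhgb2 (0.149 to 0.804 CPM) and Pcdhga7 (0.103 to 0.873 CPM), belong to it. Around Hdac8, of 3, Cited1 (1.74) and Phka1 (1.29) were higher and Rps4x (-1.10) was lower. Hdac4, which fell, had 1 tested neighbour, Twist2, which was higher (1.56, edgeR adjusted p = 0.0458). Hdac9, which rose, also had 1, Twist1, which was lower (-1.03, edgeR adjusted p = 0.00684). These neighbours were named after their values were seen. Hdac2 had no tested gene within 100 kb.

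**Figure D5:**
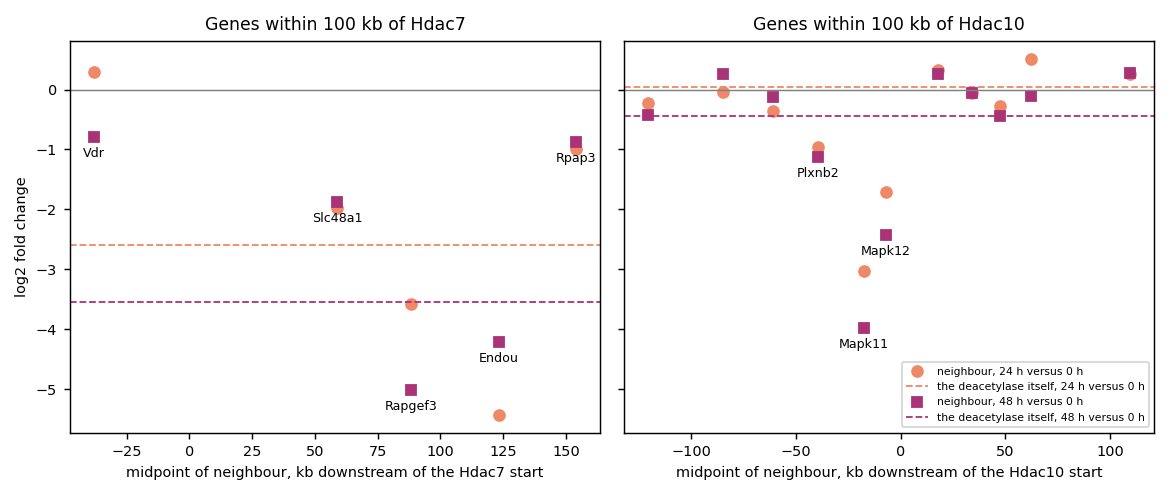
Log2 fold change against 0 h (vertical axes) of the tested genes within 100 kb of Hdac7 and of Hdac10, by the distance of their midpoint downstream of the deacetylase's start in kb (horizontal axes), with circles for 24 h, squares for 48 h and dashed lines for the deacetylase itself. All 5 squares around Hdac7 are below 0, and around Hdac10 the lowest are Mapk11 and Mapk12.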

How the data were processed

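Poly-A RNA of 9 EGFP-SSC libraries (3 biological replicates at 0, 24 and 48 h) was sequenced on an Illumina NovaSeq instrument. The values deposited by the authors are counts, whole numbers of reads per gene, not normalized; the submitters' processing notes name fastp, HISAT2, featureCounts and GRCm38, and the tool versions and the strand setting are not given in the sources used here. No strand-marking step is described, so reads of overlapping genes on opposite strands may not be told apart.

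From these counts, CPM were computed with TMM factors and divided by merged exon length (GENCODE M21) for levels per length. Comparisons used edgeR 4.0.16 in R 4.3.3 (filterByExpr, glmQLFit, glmQLFTest) on the 6 libraries of each pair of times, with Benjamini-Hochberg adjustment over all genes tested and a threshold of 0.05. The step was tested on simulated counts. The SE is the log2 difference divided by the square root of F. Depth was 16825251 to 22201892 counts per library, and of the 46078 identifiers 849 were not in the annotation. Shared sequence was searched with BLAST 2.17.0.

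Alternatives were DESeq2 1.42.0, DESeq2 size factors, scaling by library size alone, other filters on low counts, all 9 libraries in 1 fit, offsets for GC content and length, the replicate number as a block, and leaving out each library. Summing Hdac1 with Gm10093 was added after seeing the data. The block is not used in the main fits, since the labels do not tie replicate numbers across times and same-numbered libraries did not deviate together (r from -0.28 to 0.20 across genes). It is among the 15 alternatives of each comparison, alone and with offsets for GC content and length.

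The 10 genes, the 9 partner lists (1 that is not reported here by itself, other deacetylases, Sin3, NuRD, CoREST, MiDAC and MIER, class IIa regulators, counter-enzymes and substrates of Hdac6 and Hdac8, polyamine metabolism) and the 7 marker lists were chosen with earlier results of these data known. Named partner genes were up to 4 per list, those with the largest log2 difference at 48 h among genes that were called and whose mean reached 10 CPM at some time; other names are marked where they stand. Genes with like profiles were the 3 with the highest r for each of the 2 members with the widest range among those reaching 5 CPM.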

Additional observations from a re-analysis of the deposited data

How the results depend on the processing

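Of 453 recomputed log2 differences of the 10 genes, 402 kept their direction and their side of the threshold, 14 came to pass the threshold, 24 lost it and 13 reversed. Of 180 other recomputed values (levels, shares, the Hdac1 to Hdac2 ratio and counts of calls), 140 stayed within the SD of the replicates or, for counts, within 1.5 times, and 40 moved further. With the longest transcript as the length, the class shares over the 3 times were 60.3%, 60.8% and 62.8% for class I, 18.8%, 29.5% and 27.7% for class IIb, and 9.65% and 9.54% at 24 h and 48 h for class IIa, Hdac7 held 67.3%, 23.1% and 13.3% of class IIa, and the Hdac1 to Hdac2 ratio was 0.787 and 0.687 at 24 h and 48 h. With library size alone, Hdac4, Hdac6 and Hdac10 at 0 h were at 68.2, 287 and 6.55 CPM and Hdac3 at 24 h at 98.5 CPM. The number of deacetylases called from 24 h to 48 h ranged from 1 (without 48 h replicate 1) to 3 over the fits that left out 1 library. Partner genes called at 24 h were 15 under the replicate block and 10 to 34 over the leave-one-out fits, those at 48 h against 0 h 23 to 51, and those from 24 h to 48 h 9 with all 9 libraries in 1 fit, 20 under the block with GC and length offsets, and 16 to 40 over the leave-one-out fits. The reversals touched values near 0 that passed no threshold. For Hdac1 at 24 h they were 0.045 with library size alone, 0.0021 with GC and length offsets and 0.0022 with the block and these offsets, and the leave-one-out fits gave -0.12 to 0.034 (above 0 without 0 h replicate 3). For Hdac8 at 24 h the leave-one-out fits gave -0.0003 (without 0 h replicate 1) to 0.34. At 48 h Hdac8 was at -0.19 with GC and length offsets and -0.14 with the block and these offsets, and the leave-one-out fits gave -0.16 (without 0 h replicate 1) to 0.18, with -0.012 without 48 h replicate 2. For Hdac10 at 24 h they gave -0.043 (without 24 h replicate 1) to 0.092, with -0.0061 without 0 h replicate 2. Hdac2 from 24 h to 48 h was at -0.13 with the offsets and with the block and the offsets. The cause was not tested. Under the replicate block the numbers of deacetylases called were 4, 5 and 2 in place of 4, 6 and 3, with Hdac9 at 48 h (edgeR adjusted p = 0.079) and Hdac6 from 24 h to 48 h (edgeR adjusted p = 0.0821) losing their calls, and all genes called were 3007, 4013 and 2497 in place of 4494, 5602 and 3732. With all 9 libraries in 1 fit, 1043 genes were called from 24 h to 48 h. Leaving out a library gave 2607 to 6023, 3471 to 7116 and 1857 to 4356 genes. Hdac8, Hdac9 and Hdac10 had at most 156 counts in a library, and 1 cell line with 3 replicates a time limits all values.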
